A study of Mus with 2 samples.

Results

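The hypoxia-inducible factor (HIF) genes described here are 10 genes chosen by name: the HIF subunits Hif1a, Epas1 and Arnt, the oxygen sensors Egln1 and Egln3 with Vhl, and the target genes Bnip3, Ddit4, Adm and P4ha1. All 10 had a probe on the array, 17 probes in all out of 39200, and were among the 13533 genes measured, that is with a probe well above background on 1 array or both. Mouse bone marrow derived macrophages (BMDMs) from male C57BL6/J mice were grown for 7 d with 10 ng/mL of M-CSF and then kept under M2 conditions, that is with 10 ng/mL of IL-4, for 24 h. During these 24 h one culture was given DMSO, the solvent, and the other 10 µM of GW4064, a synthetic agonist of the farnesoid X receptor (FXR). Each was measured on 1 Agilent 1-colour array, so that there is no replicate error and no test. The treatment field and the title of the second sample name GW4064, while its free-text description repeats that of the DMSO sample.

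HIF is a transcription factor of an alpha subunit, encoded by Hif1a or Epas1, and a constant partner encoded by Arnt. In the presence of oxygen the prolyl hydroxylases of the Egln family mark the alpha subunit, the product of Vhl then binds it as part of a ubiquitin ligase, and it is degraded. HIF activity is therefore set mainly at the level of the protein, which an array does not measure. In macrophages Hif1a is best known from inflammatory activation and Epas1 has been linked to the response to IL-4.

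Of the 10 genes, 8 were higher and 2 lower on the GW4064 array, with a median log2 difference of 0.20, against 51.6% higher and a median of 0.0069 over all genes measured. The largest differences were those of both alpha subunits, Epas1 with 0.70 and Hif1a with 0.48, while Arnt, Vhl and Egln1 stayed within 0.06 of 0. None of the 10 reached 2-fold, a size that 2.04% of all genes reached upwards and 2.71% downwards. At 1.5-fold, which 4.39% of all genes passed upwards, 1 of the 10 was higher, Epas1. All differences are log2 of the GW4064 signal minus log2 of the DMSO signal after the 75th percentile of each array had been set to 0. With scaling to the spike-in RNA instead, the median of all genes was -0.18 and 17.9% of them were higher. Of the 10 genes, 5 were then higher and 5 lower, and their median was 0.010. That setting turned the sign of Vhl, Bnip3 and Adm.

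Hif1a was read by 1 probe at 1 spot. Its signal was 1922 with DMSO and 2813 with GW4064, a log2 difference of 0.48 or 1.40-fold. The scanner software gives each spot an error of its own, which came to 0.20 for this difference, and the difference was more than 2 times as large. The spots in the 5 rows and columns around it had a median difference of -0.11, and no spot within 300 µm differed 8-fold or more. Of all genes measured, 5.83% had a larger rise, and of 4385 probes within 2-fold of its signal 3.58% differed at least as much in either direction. With scaling to the spike-in RNA, Hif1a had a difference of 0.29.

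Epas1, which encodes the alpha subunit of the second HIF, had 3 probes, all assigned to the same transcript record, and they did not give the same difference. The first had signals of 2158 and 4396, a log2 difference of 0.96 with a software error of 0.20. The second went from 2054 to 2405, a difference of 0.16 with an error of 0.20. Probe 3, the dimmest, went from 97.0 to 198, a difference of 0.96 with an error of 0.22. So 2 probes were close to 2-fold higher on the GW4064 array and the other was within its error of no difference. The differences of the first and second probe were 0.80 apart, which was 2.77 times the error of that value, and those of the first and probe 3 were -0.0042 apart. None of the 3 spots had another spot differing 8-fold within 300 µm, and the median difference around them lay between -0.065 and -0.052. The part of the transcript that each probe reads was not analysed here. For the gene as a whole, the mean over the probes was 0.70, or 1.62-fold, a rise exceeded by 3.43% of all genes, and it was 0.96 when the brightest probe alone was used. It fell below 1.5-fold with 2 settings, 0.51 with scaling to the spike-in RNA and 0.53 after a normexp background correction. The second probe was then at -0.029 and 0.092. After normexp the first probe was at 0.91, while probe 3 fell to 0.60, so the size of this dim probe depended on the background correction.

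Arnt, the partner of both alpha subunits, showed no such difference. Its brighter probe had signals of 1938 and 2010, a log2 difference of -0.013, and the other had 390 and 386, a difference of -0.079. Both were within the software error of 0.20 to 0.21. Their mean of -0.046 was lower than 61.9% of all genes.

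**Figure D1:**
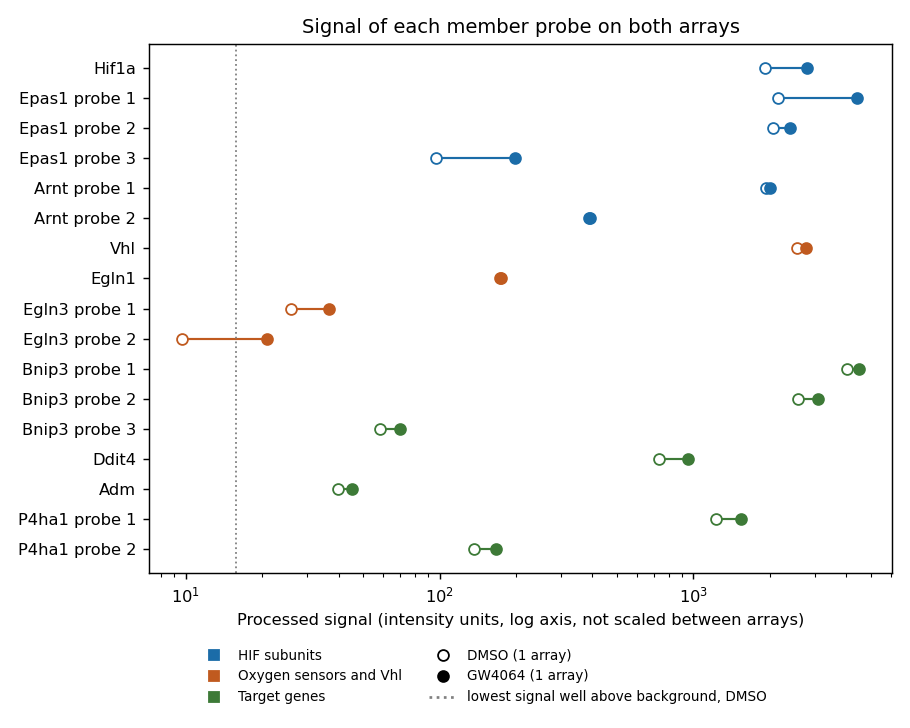
Processed signal of each of the 17 probes (log axis, intensity units, before scaling between arrays) on the DMSO array (open) and the GW4064 array (filled), coloured by role, with probes of a gene numbered from bright to dim. The longest lines among bright probes are those of Epas1 probe 1, from 2158 to 4396, and Hif1a, from 1922 to 2813, and Egln3 probe 2 starts left of the dotted line at 15.7, the lowest signal well above background on the DMSO array.

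Vhl encodes the part of the ubiquitin ligase that recognises the hydroxylated alpha subunit. Its signals of 2556 and 2780 gave a log2 difference of 0.056, and -0.13 with scaling to the spike-in RNA. Egln1, the main oxygen sensor in most cells, had signals of 173 and 174, a difference of -0.059. Both differences were below the software error, 0.20 for Vhl and 0.21 for Egln1, so that neither gene could be told from no difference at this precision.

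Egln3 encodes a sensor that is itself a HIF target, and it was dim on both arrays. The brighter of its probes had signals of 25.9 and 36.7, a log2 difference of 0.44 with an error of 0.30. On the other, the DMSO signal of 9.70 lay within the background and that with GW4064 was 20.9, at least 1.27-fold higher. As a mean with the second probe at its bound, Egln3 had 0.39, the third largest difference of the 10. Among 4389 probes of like signal, 37.8% differed at least as much as the brighter probe, so that a difference of this size was common near the background. The mean was 0.74 where the dim value was used as measured, with no filter or in the deposited log2 table, and 0.23 after the normexp correction.

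The target genes Bnip3, Ddit4, Adm and P4ha1 were all higher, by 0.13 to 0.31, apart from Bnip3 and Adm with scaling to the spike-in RNA and Adm after the normexp correction. Ddit4, which encodes an inhibitor of mTORC1, had the largest difference of them, with signals of 733 and 954, a log2 difference of 0.31 and an error of 0.20. Of all genes, 10.1% had a larger rise, and the difference was 0.12 with scaling to the spike-in RNA.

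P4ha1 encodes the catalytic subunit of the enzyme that hydroxylates collagen prolines. Its probes went from 1222 to 1540 and from 137 to 166, log2 differences of 0.27 and 0.22 with an error of 0.20 and 0.21. The probes gave nearly the same size, 0.051 apart. Their mean was 0.24, and 0.052 with scaling to the spike-in RNA. After the normexp correction the probes had 0.23 and 0.056. Each of the spots had 2 other spots within 300 µm that differed 8-fold or more, and the median difference around them was 0.069 and 0.0081, so the gene has no value once such areas of the slide are left out.

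Bnip3, a receptor for the removal of mitochondria, had 3 probes that all pointed the same way. Their signals were 4022 and 4477 for the first, 2587 and 3092 for the second and 58.4 and 69.9 for the dimmest, which gave log2 differences of 0.089, 0.19 and 0.20. Each was smaller than its software error of 0.20 to 0.23. The mean was 0.16, and -0.032 with scaling to the spike-in RNA, where the probes had -0.10, 0.0010 and 0.0043. Adm, the precursor of the vasodilator peptide adrenomedullin, was dim, with signals of 39.6 and 45.3, a difference of 0.13 and an error of 0.32. It was lower, at -0.080, after the normexp correction and at -0.063 with scaling to the spike-in RNA, so that its direction was not stable.

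**Figure D2:**
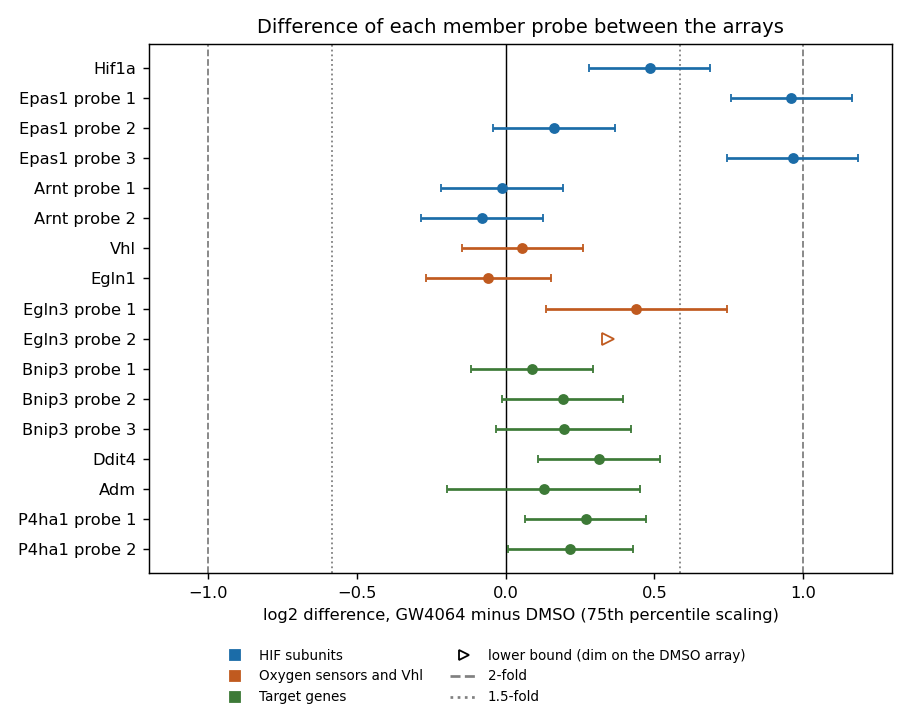
Log2 difference, GW4064 minus DMSO, of each of the 17 probes, with bars of 1 software error and an open triangle for the probe whose difference is a lower bound. Of the 17, 14 lie right of 0, and 3 are more than 2 errors away from 0, Hif1a at 0.48 and Epas1 probes 1 and 3 at 0.96.

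Over the 17 probes, 14 were higher and 3 lower, and 10 were within 1 software error of no difference. The software error is an estimate from a single spot. As a second measure, probes printed 10 times gave a median SD of the log2 difference over the copies of 0.072 where the signal was 1000 or more, 0.089 between 100 and 1000 and 0.18 under 100. No member was printed more than once, and neither measure covers the difference between cultures. In the 5 genes with more than 1 probe, all probes of a gene had the same sign.

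**Figure D3:**
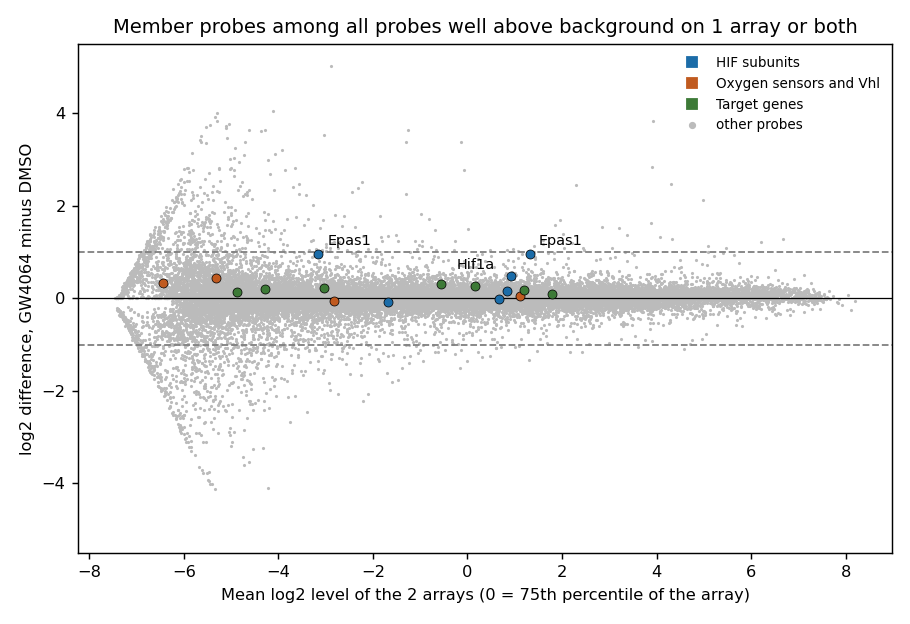
Log2 difference against the mean log2 level of both arrays for all 23749 measured probes (grey), with the 17 probes of the HIF genes in colour and dashed lines at 2-fold. Epas1 probes 1 and 3 at 0.96 and Hif1a at 0.48 lie above the dense band of probes of like level, while the other coloured points lie in it.

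The other genes that regulate HIF did not move as a group. Of a list of 15, 13 were measured, 7 of them higher and 6 lower, with a median of 0.023. With scaling to the spike-in RNA 1 was higher, where 17.9% of all genes were. Hif3a and Arnt2, paralogs of the subunits, were not well above background on the arrays. The remaining parts of the ligase had gene means of 0.023 for Elob, 0.036 for Cul2, 0.11 for Rbx1 and 0.14 for Eloc. The other sensor Egln2 had -0.042. Hif1an, which hydroxylates an asparagine of the alpha subunit, had -0.0068. Elob, Cul2, Egln2 and Hif1an were thus as near 0 as Arnt, Vhl and Egln1. Rbx1 and Eloc were further off, and Eloc, whose probes had 0.30 and -0.033, was close in size to the target Adm at 0.13. The lowest was Cited2, a HIF target whose product competes with HIF for its coactivators, at -0.49, with signals of 885 and 666 on one probe and 2889 and 2119 on the other. P4htm, a membrane-bound prolyl hydroxylase, was the only one past 2-fold, at 1.48, from signals of 39.3 and 115. Its single spot had 3 others differing 8-fold within 300 µm, and the difference was 0.70 after the normexp correction.

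Other HIF targets outside glycolysis and angiogenesis went both ways. Of a list of 25, 22 were measured, 13 of them higher and 9 lower, with a median of 0.049. With scaling to the spike-in RNA 4 of the 22 were higher, a share close to the 17.9% of all genes. Upwards 0 of them reached 2-fold and downwards 1 did, Lox, where 2.04% and 2.71% of all genes did so. Hilpda, which encodes a protein of lipid droplets, was the highest, with 0.99 as the mean of its probes, whose signals went from 1775 to 3759 and from 1908 to 3912. Ankrd37 followed with signals of 907 and 1399, a difference of 0.56, and Bhlhe40, a transcription factor, with 7597 and 10183, a difference of 0.36. These differences were larger than those of the 4 targets among the 10 genes. Bnip3l, the paralog of Bnip3, had 0.12. P4ha2, the paralog of P4ha1, had -0.16. Falls short of 1.5-fold but of a size like the rise of Bhlhe40 were those of Car12, at -0.38, and Bhlhe41, its paralog, at -0.32. Rora had -0.23. Car12 was dim, with signals of 18.8 and 12.7, and was not well above background with GW4064, so that its fall is a lower bound.

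On the same list 2 targets were lower by 1.5-fold or more, as were 5.56% of all genes. Lox, which cross-links collagen, had signals of 382 and 129 on one probe and of 181 and 63.6 on the other, a mean difference of -1.60. Ndrg1, a gene known for its response to hypoxia, went from 1986 to 1120, a difference of -0.89. So Lox and P4ha1, both of collagen biosynthesis, had differences of opposite sign, though that of P4ha1 was small and close to its software error. Markers of stromal cells, which make collagen, moved with Lox: of 12 on a fixed list, 11 were measured and 8 were lower, the summed signal was 37796 with DMSO and 21661 with GW4064, and Lum, a defining marker, was below that level on both arrays. Their part in these values was not tested. In bulk RNA, fewer cells of a type and less RNA per cell cannot be told apart.

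Glycolytic HIF targets are given for comparison. Of 13, all measured, 12 were higher and 1 lower, where 51.6% of all genes were higher. Their median was 0.11, and no gene was at 2-fold. Pfkfb3 and Eno1 counted as higher at 0.00031 and 0.0087. With loess 9 were higher, and 10 with quantile or median scaling, where 48.5% to 49.0% of all genes were. With scaling to the spike-in RNA 5 were higher, against 17.9% of all genes, and the median was -0.076. Pfkl, a subunit of phosphofructokinase, had 0.75, from 1011 to 1779, and Slc16a3, a lactate transporter, 0.56. On the angiogenic list of 5, 4 were higher, among them Pgf at 0.0097, where 51.6% of all genes were higher. With spike-in scaling, median scaling or the normexp correction 3 of the 5 were higher. Vegfa was the only one past 2-fold, at 1.28, and Angptl4 was lower at -0.88. Lists that share a transcription factor thus held both rises and falls. The differences between the lists were not tested.

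**Figure D4:**
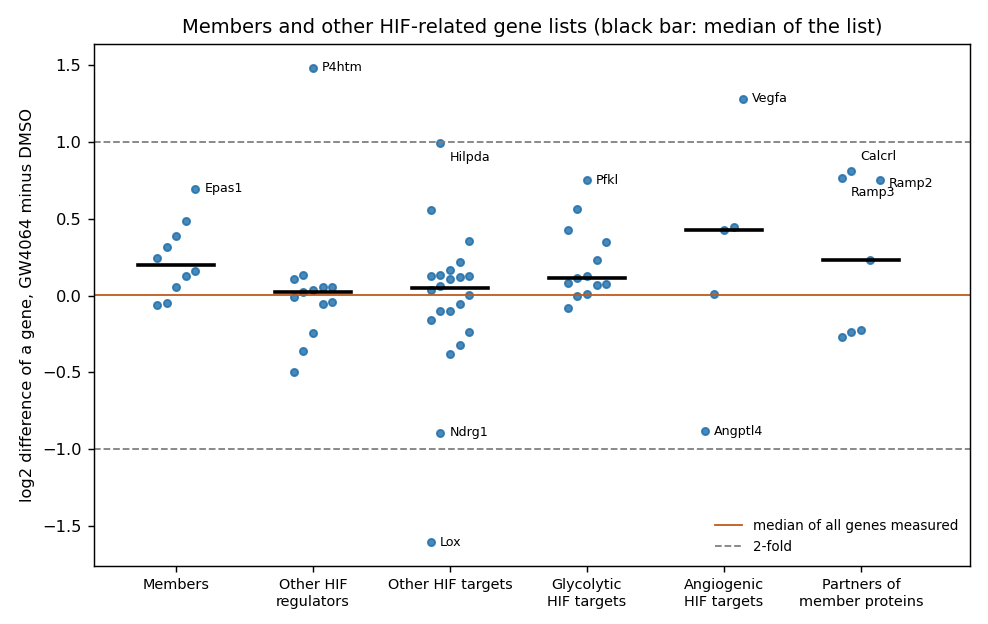
Log2 difference of each measured gene in the 10 HIF genes (members), 5 further lists and their medians (black bars), with the median of all genes as a line at 0.0069 and dashed lines at 2-fold; genes 1.5-fold or more apart are named. The medians lie between 0.023 for the other regulators and 0.42 for the angiogenic targets, and the widest range, from -1.60 for Lox to 0.99 for Hilpda, is that of the other targets.

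Adrenomedullin acts through the receptor encoded by Calcrl with Ramp2 or Ramp3, and all of these were dim and higher. Calcrl had signals of 55.2 and 101, a difference of 0.81, Ramp2 55.8 and 98.6, a difference of 0.76, and Ramp3 60.7 and 108, a difference of 0.77. Ramp1, which with Calcrl forms the receptor of another peptide, had -0.27. The normexp correction reduced the first 3 to 0.40, 0.29 and 0.44. The probe for Adm2, the paralog of Adm, was not well above background. P4hb, the beta subunit of the collagen prolyl hydroxylase, had 0.23, from 15702 to 19334, close to P4ha1, and P4ha3 had -0.22.

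The labelled cell type was checked with markers fixed by name. Of 9 macrophage markers 8 were measured, between -0.34 and 0.13, with a summed signal of 377647 with DMSO and 356597 with GW4064. Of 8 neutrophil markers 7 were measured and all were lower. Of 8 lymphocyte markers 4 were measured and 3 of these were lower, of 6 endothelial markers 4 and all were lower, and of 4 dendritic cell markers 3, with 2 higher. Over all genes measured, 51.6% were higher. The summed signals with DMSO and GW4064 were 13970 and 9052 for neutrophil markers and 4790 and 4585 for lymphocyte markers. They were 1789 and 1834 for endothelial markers, mostly from Kdr at -0.033, and 186660 and 159286 for dendritic cell markers. The probe for Nr1h4, the gene of FXR, was not well above background with DMSO or with GW4064. Of FXR targets, Nr0b2 had signals of 22.5 and 45.5, with 2 spots 8-fold apart within 300 µm. Slc51b went from 45.3 to 8.72, at least 3.14-fold lower, and Abcb11 from 58.5 to 19.5, 3.15-fold lower. Both were dim, were read at a single spot and were not well above background with GW4064.

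**Figure D5:**
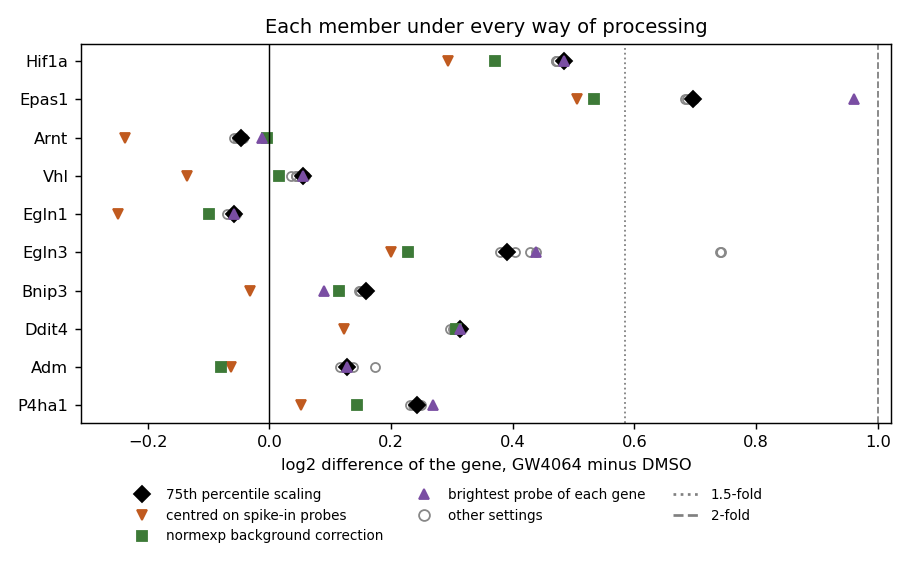
Log2 difference of each of the 10 genes (GW4064 minus DMSO) under 12 ways of processing, with 75th percentile scaling as diamonds. Scaling to the spike-in RNA, normexp and the brightest probe of each gene are in colour, and the other settings are in grey. Epas1 lies between 0.51 and 0.96 and Hif1a between 0.29 and 0.49, and scaling to the spike-in RNA (triangles pointing down) moves all genes left by 0.19.

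Over the 12 settings, Hif1a, Epas1, Egln3, Ddit4 and P4ha1 were higher in every one that gave a value and Arnt and Egln1 were lower in every one. Vhl, Bnip3 and Adm changed sign in 1 or 2 of them. All settings reprocess the same arrays. The differences of Arnt and Egln1 lay within the software error, and before scaling Egln1 had signals of 173 and 174. After normexp the Arnt probes had 0.024 and -0.033. The lowest value of Epas1, 0.51, lay above the highest of Hif1a, 0.49, while Egln3 with its dim value as measured reached 0.74. That lowest value of Epas1 is a mean over its probes, and the order depended on the probe. The second Epas1 probe alone had 0.16, and -0.029 with scaling to the spike-in RNA, below Hif1a at 0.48 and 0.29.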

How the data were processed

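Total RNA of BMDMs given DMSO or 10 µM of GW4064 for 24 h under M2 conditions was hybridised by the authors to Agilent 1-colour arrays. The authors deposited the intensity of each spot (43020 non-control spots per array), background-subtracted and detrended by Feature Extraction 10.7.1.1 and not scaled between arrays. A log2 table deposited by the authors matched the differences as measured, before any dim signal was raised, for 39200 probes apart from a constant of 0.0022. Its columns have medians of 0.035 (DMSO) and -0.051 (GW4064), and the baseline each probe was centred on stays unknown.

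From the intensities, log2 signals minus the 75th percentile of each array (1209 and 1265) were computed. Marked spots were left out, no spot was saturated, and copies of a probe were averaged. A probe was called well above background by the flag of the software (57.4% of probes with DMSO, 58.5% with GW4064). Where it was so on 1 array only, the other was raised, if lower, to the lowest signal well above background there (15.7 and 15.1), which gives a lower bound, written "at least". Probes well above background on 1 array or both were averaged for each gene. Errors of differences were propagated from the software's error of each signal. How precise any value is depends on the number of arrays. RefSeq accessions of GRCm38.p6 gave 26445 probes a symbol. The arrays were designed on another build, so coordinates are left out.

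No test was made, since each condition has a single array, and genes are called by size, at 2-fold and 1.5-fold. The 10 genes and the lists were chosen by name with earlier results of these data known. All 10 are named, and of the lists, apart from those of cell type markers, the genes 1.5-fold or more apart, the most abundant or those furthest from 0, with paralogs and partners of the 10 added. One item of the lists is not reported here. Alternatives were quantile, median, loess (span 0.3) and spike-in scaling, the deposited table, normexp (offset 50) on median spot signals, marked spots kept, other filters, thresholds and probe rules, and leaving out spots with 2 or more others 8-fold apart within 300 µm (damaged areas). The calculation was tested on simulated data. The tools were limma 3.58.1 in R 4.3.3 and, in Python 3.11.15, pandas 2.3.3, numpy 2.4.6, matplotlib 3.10.9 and statsmodels 0.14.6.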

Additional observations from a re-analysis of the deposited data

How the results depend on the processing

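No paired analysis was possible because there is a single array for each condition. The median of the 10 genes, 0.20, became 0.010 with scaling to the spike-in RNA, which lowers all 10 by 0.19. At 1.5-fold in place of 2-fold, 1 of the 10 genes and 1 of the other targets were higher. The 1 regulator past 2-fold, P4htm, was not called after normexp, at 4-fold or with damaged areas of the slide left out, where it has no value (0 each). Of the other targets, 1 was 2-fold lower, Lox, and 2 with scaling to the spike-in RNA or at 1.5-fold and 0 at 4-fold. The number of all genes 2-fold higher and lower, 276 and 367, was 72 and 64 after normexp, 698 and 767 with no filter, 107 and 164 with probes well above background on both arrays and 495 and 495 in the deposited table. Dim probes such as those of Egln3 and Adm limit what can be read. The cause of these shifts was not tested.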
